A study of Homo sapiens with 22 samples.

Results

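The enzymes described here keep the cell's thiols reduced and remove peroxides, superoxide, quinones and reactive electrophiles. They comprised 48 genes chosen by symbol, of which 47 were in the table of 34679 genes. SOD2 stood on 2 gene IDs, so the set gave 48 gene rows, and 45 rows passed the filter on low counts. ME1 was not analysed here. GPX7, GSTM1 and SOD3 were too low to be tested, with at most 15, 7 and 4 counts summed over any group.

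Polyadenylated RNA came from LUHMES, an immortalised human midbrain-derived line used here after differentiation into neurons. Of the 6 groups, 4 carried overexpressed alpha-synuclein, a presynaptic protein found in Lewy bodies: with 6-OHDA and quercetin (3 libraries), with 6-OHDA and rutin (3 libraries), with 6-OHDA alone (4 libraries) and untreated (4 libraries). The other 2 groups were wild-type cells, labelled control, with 6-OHDA (4 libraries) and untreated (4 libraries). 6-OHDA is 6-hydroxydopamine, an auto-oxidising dopamine analogue, and the design text names these groups as cell models of Parkinson disease in which the flavonol quercetin and its glycoside rutin were tested for protection. The labels give no dose or time, no promoter for alpha-synuclein and no word on whether replicates were separate cultures. The p-values thus reflect the spread among these libraries alone, and that spread may be technical.

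Counts per library summed to 1866396 to 20667106, and 3 counts corresponded to 0.168 to 1.49 CPM, that is, counts scaled to a common library size by TMM. All 8 neuronal markers were above 1 CPM in every group, and their summed level was 3410 to 5169 CPM with 6-OHDA against 6954 to 8895 CPM without it in alpha-synuclein cells, and 2984 to 3261 CPM with 6-OHDA against 8360 to 9179 CPM without it in wild-type cells. The 7 dopaminergic markers summed to 77.5 to 106.5 CPM with 6-OHDA against 342.5 to 444.2 CPM without it in alpha-synuclein cells, and to 151.9 to 168.8 CPM with 6-OHDA against 377.2 to 422.1 CPM without it in wild-type cells, so the treated genotypes did not overlap. Among them ALDH1A1 was at 0 in the 4 groups without a compound. The 6 astrocyte markers summed to at most 73.3 CPM and the 5 microglial markers to at most 15.7 CPM in any library. In these bulk samples fewer cells of a type and less RNA per cell cannot be told apart, and the part of these marker shifts in the results below was not tested. Replicate 4 of alpha-synuclein cells with 6-OHDA stood apart, at -1.47 on the first principal component, against 35.8 to 45.3 for the other 6-OHDA libraries and -76.4 to -53.5 for the untreated ones, so member counts for comparisons that use this group, and the members whose calls change, are also given without it. The library names place every 6-OHDA library of alpha-synuclein cells on lane 2 and all untreated and wild-type libraries on lane 1. Lane and group therefore cannot be told apart for 6-OHDA in alpha-synuclein cells, for the genotypes under 6-OHDA and for the difference between genotypes in response, whereas 6-OHDA in wild-type cells, genotype in untreated cells and the compounds each lay within 1 lane.

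As background, glutathione is built by glutamate-cysteine ligase (catalytic subunit GCLC, modifier subunit GCLM) and glutathione synthetase (GSS), and its oxidised form is returned by glutathione reductase (GSR) at the expense of NADPH. The thioredoxin reductases TXNRD1 and TXNRD2 keep thioredoxins reduced, and these in turn recharge the peroxiredoxins, with sulfiredoxin (SRXN1) rescuing overoxidised ones. Many of these genes are known targets of the transcription factor NRF2 (gene NFE2L2), which KEAP1 holds in check until electrophiles or oxidants modify it, and NRF2 binds antioxidant response elements in their promoters. Dopaminergic neurons are known for a high oxidant load because dopamine itself auto-oxidises.

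Before any treatment, the set was led by GSTP1, the pi-class glutathione transferase, at 1030 CPM per kilobase of transcript in untreated wild-type cells (932 to 1176 over 4 libraries). TKT, transketolase of the pentose phosphate pathway, followed at 188 CPM per kilobase (169 to 218), and then MGST3 at 144, IDH1 at 139 and SOD1 at 128 CPM per kilobase. The ranges of MGST3 (135 to 148), IDH1 (122.45 to 146) and SOD1 (117 to 142) overlapped, so these neighbours were not ordered beyond their spread. TXN, the cytosolic thioredoxin, was low, at 1.93 ± 0.725 CPM in untreated wild-type cells (SD, n = 4), which is 2.56 CPM per kilobase. PRDX4 stood at 0.766 (0 to 1.81) and OSGIN1 at 0.681 CPM per kilobase (0.262 to 1.14). These ranges overlapped, so which tested member was lowest is not settled. Of the members' pseudogene copies 32 were in the table, 4 of them above 1 CPM and the highest at a mean of 1.88 CPM, and reads shared with such copies make low levels such as that of TXN uncertain.

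With 6-OHDA more members rose than fell in both genotypes, led by NQO1, PRDX1, GPX3, GCLM and OSGIN1. In alpha-synuclein cells 19 of the 45 rows rose and 5 fell, beside 22.9% of all 16601 tested genes called higher and 24.2% called lower. In wild-type cells 25 of the 45 rows rose and 7 fell, beside 25.8% of all tested genes called higher and 26.2% called lower (edgeR quasi-likelihood test, Benjamini-Hochberg adjusted p under 0.05 in both). The median log2 change of the 45 rows was 0.39 in alpha-synuclein cells, where the median of all tested genes was 0.05. In wild-type cells it was 0.55, where that of all tested genes was 0.07. Because the members were chosen with earlier results of these data known, these shares and medians are descriptive only. Changes past 2-fold were called in 9 rows upwards and 1 downwards in alpha-synuclein cells, and in 10 upwards and 1 downwards in wild-type cells. The share of all tested genes past 2-fold was not counted, so these numbers have no background beside them. Without replicate 4 of the treated alpha-synuclein cells, 21 rows rose and 6 fell there, and GCLM, PRDX1, GPX3, OSGIN1 and GSR rose by 3.26, 3.02, 3.11, 3.43 and 1.48 on the log2 scale. Rows called in both genotypes were 17 upwards (GCLC, GCLM, GSR, NQO1, TXNRD1, SRXN1, OSGIN1, PRDX1, GPX3, GSTM2, GSTO1, GSTZ1, MGST1, SOD1, PGD, TALDO1 and TKT) and 3 downwards (GSS, GSTK1 and SOD2). GSTP1 alone was called in opposite directions, and 10 rows were called in neither. The shares of all tested genes called in both genotypes were not counted, so these overlaps are descriptive only.

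Among the glutathione-synthesis genes both subunits of the rate-limiting ligase rose and the synthetase fell. GCLM had 88.6, 98.7, 86.2 and 58.1 CPM in treated and 10.1, 10.3, 8.33 and 9.54 CPM in untreated alpha-synuclein cells. It had 79.8, 62.9, 90.7 and 74.1 CPM in treated and 9.96, 10.2, 9.72 and 10.4 CPM in untreated wild-type cells. Every treated library lay above every untreated one, and the log2 change was 3.101 ± 0.14 (SE) in alpha-synuclein cells and 2.93 ± 0.15 in wild-type cells, an 8.58-fold and a 7.60-fold rise (adjusted p = 3.96e-13 and 1.5e-12). The catalytic subunit GCLC rose less, by 0.92 ± 0.08 in alpha-synuclein cells and 0.81 ± 0.08 in wild-type cells on the log2 scale, again with no overlap between libraries. GSS, which joins glycine to gamma-glutamylcysteine, had 29.1, 32.7, 27.5 and 36.2 CPM in treated and 57.9, 59.2, 60.8 and 56.5 CPM in untreated alpha-synuclein cells. Its levels were 32.2, 25.4, 29.3 and 28.3 CPM in treated and 53.2, 62.9, 49.1 and 55.4 CPM in untreated wild-type cells. GSS fell in every treated library, by 0.89 ± 0.10 in alpha-synuclein cells and 0.92 ± 0.10 in wild-type cells on the log2 scale. GSR had 58.2, 57.1, 44.9 and 31.9 CPM in treated and 22.0, 16.9, 20.3 and 17.7 CPM in untreated alpha-synuclein cells. It had 52.1, 55.96, 53.01 and 45.3 CPM in treated and 11.4, 10.4, 17.7 and 17.0 CPM in untreated wild-type cells, so that it rose 2.47-fold in alpha-synuclein and 3.64-fold in wild-type cells. GGT7, a gamma-glutamyltransferase family member, was not called in alpha-synuclein cells at -0.37 ± 0.18 and fell in wild-type cells by 0.62 ± 0.20 on the log2 scale (adjusted p = 0.0139). That call was lost without untreated replicate 3 or with only the groups compared in the fit (largest adjusted p = 0.0626 over the alternatives).

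NQO1, a reductase that turns quinones into hydroquinones, showed the steepest rise of all members in both genotypes. NQO1 lies on chromosome 16 (69706996 to 69726951 on GRCh38, minus strand, GENCODE 29). NQO1 had 196, 239, 304 and 315 CPM in treated and 13.4, 13.6, 21.1 and 16.7 CPM in untreated alpha-synuclein cells. In wild-type cells NQO1 had 249.7, 287, 261 and 256 CPM with 6-OHDA and 17.3, 22.3, 17.2 and 12.9 CPM without. The log2 change was 4.01 ± 0.17 in alpha-synuclein cells and 3.94 ± 0.18 in wild-type cells, 16.1-fold and 15.3-fold (adjusted p = 2.76e-13 and 3.22e-13). Replicate 4 of treated alpha-synuclein cells held the highest NQO1 level of the 4, and the change without that library was 3.90 ± 0.16. Its relative NQO2 was not called in alpha-synuclein cells at 0.11 ± 0.12 and rose in wild-type cells by 0.37 ± 0.12. That call was lost without untreated replicate 1 or 6-OHDA replicate 4 and with no filter on low counts (largest adjusted p = 0.121 over the alternatives). The difference between the genotypes was not called for NQO2 (adjusted p = 0.311).

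OSGIN1, an oxidative-stress-induced growth inhibitor, had 11.1, 7.54, 10.6 and 4.03 CPM in treated and 0.429, 0.758, 0.9499 and 1.26 CPM in untreated alpha-synuclein cells. Its levels were 11.3, 13.0, 12.1 and 7.46 CPM in treated and 1.63, 0.547, 1.12 and 2.38 CPM in untreated wild-type cells. Although it was low, treated and untreated libraries did not overlap, and the log2 change was 3.13 ± 0.34 in alpha-synuclein and 2.87 ± 0.36 in wild-type cells.

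**Figure D1:**
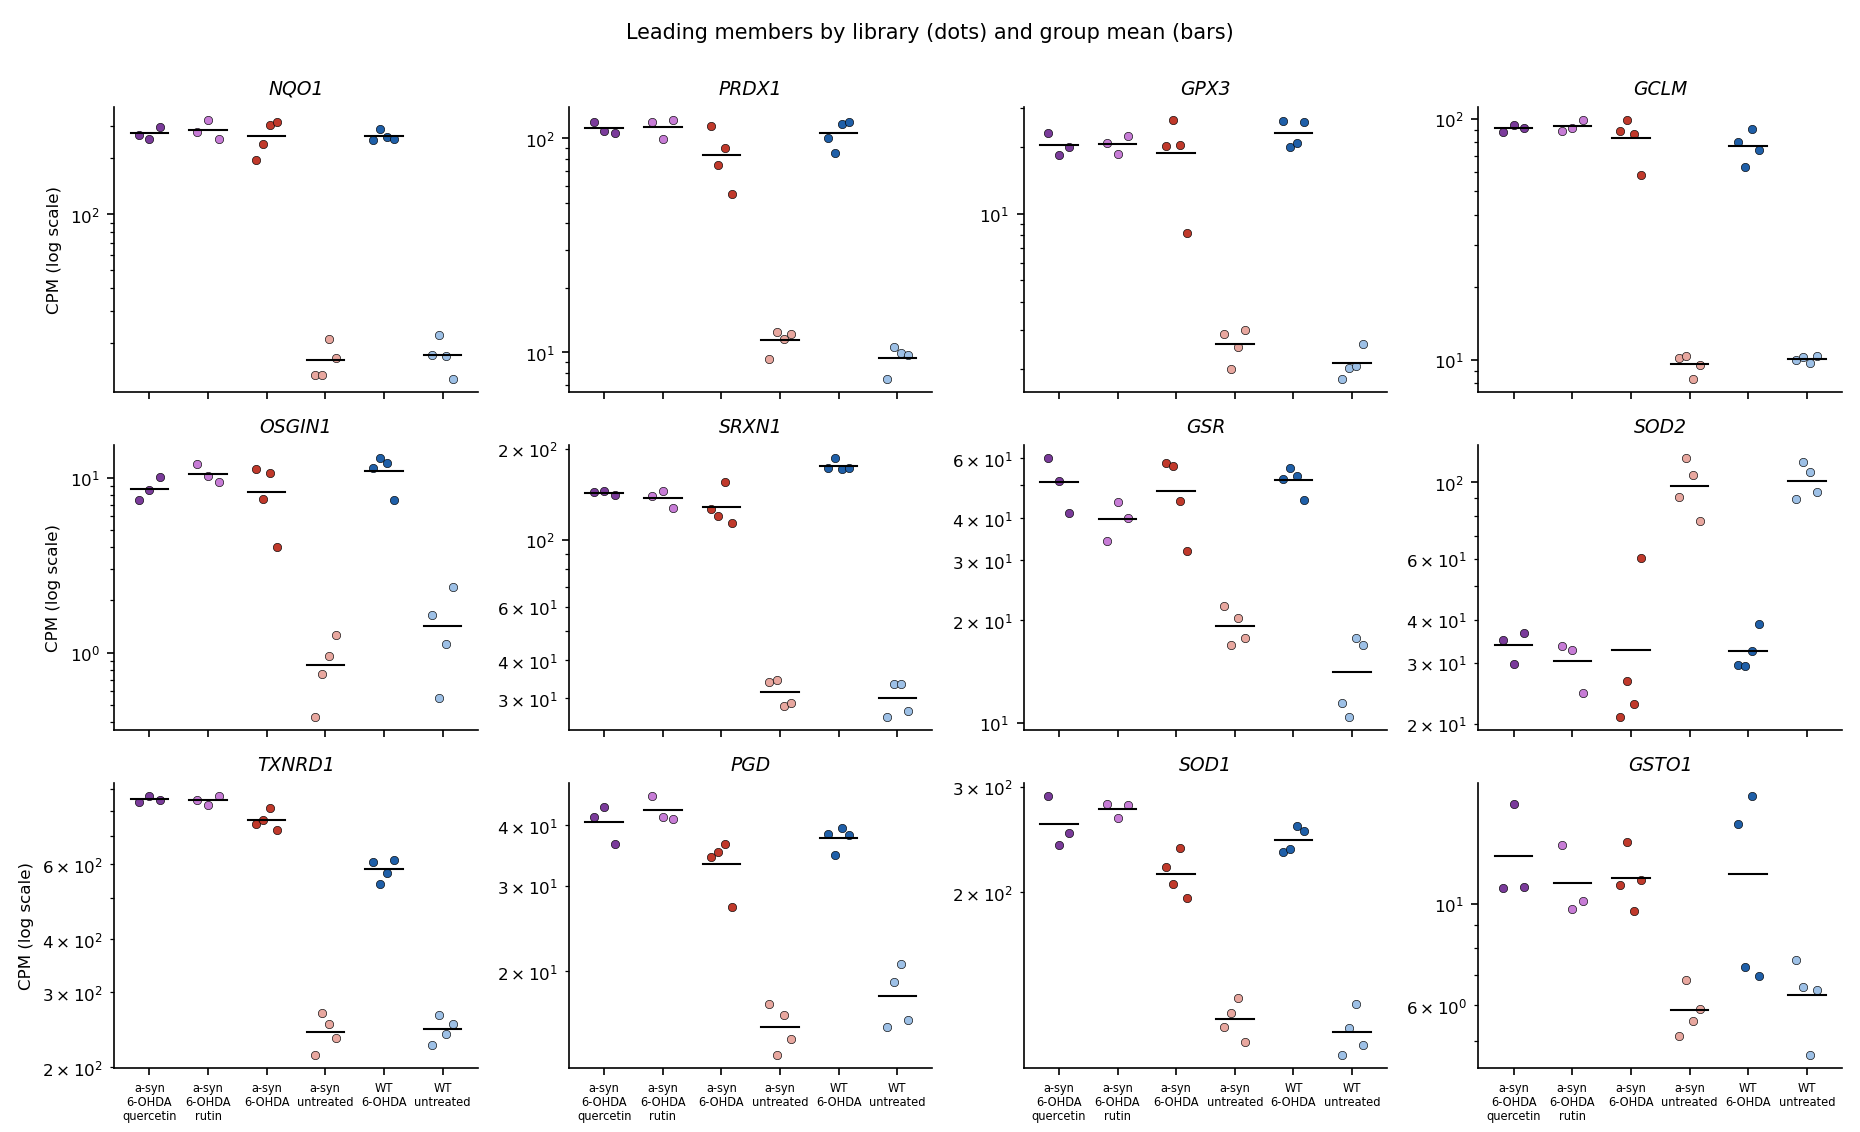
CPM on a log axis for the 12 members with the largest mean 6-OHDA change, 1 dot per library and a bar at the group mean, with compound groups left of 6-OHDA alone and treated left of untreated cells (a-syn, alpha-synuclein; WT, wild type). NQO1 lies at 196 to 324 CPM in every 6-OHDA group and at 12.9 to 22.3 CPM in untreated cells, SOD2 runs the other way, and the lowest red dot of GCLM, GPX3 and OSGIN1 is replicate 4.

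In the thioredoxin branch the reductase and sulfiredoxin rose while the thioredoxins themselves did not pass the test. TXNRD1, the cytosolic selenoprotein reductase, had 747, 764, 815 and 724 CPM in treated and 214, 268, 253 and 235 CPM in untreated alpha-synuclein cells. In wild-type cells TXNRD1 had 607, 539, 573 and 616 CPM with 6-OHDA and 226, 266, 239 and 253 CPM without. It rose 3.14-fold in alpha-synuclein cells (log2 1.65 ± 0.07) and 2.37-fold in wild-type cells (log2 1.24 ± 0.07), with no overlap in either. SRXN1 had 126, 119.9, 155 and 113.8 CPM in treated and 34.005, 34.4, 28.3 and 28.97 CPM in untreated alpha-synuclein cells. It had 173, 187, 171 and 173 CPM in treated and 26.0, 33.4, 33.4 and 27.2 CPM in untreated wild-type cells, a rise of 4.10-fold in alpha-synuclein and 5.89-fold in wild-type cells. TXN, mitochondrial TXN2 and mitochondrial TXNRD2 were called in neither genotype, with log2 changes of 0.63 ± 0.37, -0.37 ± 0.16 and -0.19 ± 0.14 in alpha-synuclein cells and of 0.01 ± 0.44, 0.08 ± 0.17 and 0.17 ± 0.15 in wild-type cells. Without replicate 4, TXN2 was called lower in alpha-synuclein cells at -0.55 ± 0.16 (adjusted p = 0.00680).

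Among the 6 peroxiredoxins, which reduce hydrogen peroxide through a reactive cysteine, PRDX1 moved far more than its relatives. PRDX1 had 113.7, 75.4, 89.5 and 55.1 CPM in treated and 9.29, 12.5, 11.6 and 12.2 CPM in untreated alpha-synuclein cells. In wild-type cells PRDX1 had 100.1, 85.6, 116.3 and 119 CPM with 6-OHDA and 7.51, 10.6, 9.90 and 9.73 CPM without. The log2 change was 2.85 ± 0.17 in alpha-synuclein and 3.47 ± 0.19 in wild-type cells, and all treated libraries were above all untreated ones. PRDX2, PRDX5 and PRDX6 were not called in alpha-synuclein cells, at 0.05 ± 0.12, -0.19 ± 0.17 and 0.54 ± 0.23, and rose in wild-type cells by 0.92 ± 0.13, 0.58 ± 0.17 and 0.72 ± 0.25. The PRDX6 call in wild-type cells was lost without untreated replicate 2 or without 6-OHDA replicate 2 or 4 (largest adjusted p = 0.0861 over the alternatives). Without replicate 4 of treated alpha-synuclein cells PRDX6 was called higher there too, at 0.66 ± 0.25 (adjusted p = 0.0322). Mitochondrial PRDX3 and the endoplasmic reticulum enzyme PRDX4 were called in neither genotype.

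Of the glutathione peroxidases, the secreted GPX3 had 20.1, 26.6, 20.4 and 8.17 CPM in treated and 2.86, 2.00, 2.51 and 2.97 CPM in untreated alpha-synuclein cells. It had 26.1, 20.0, 20.9 and 25.9 CPM in treated and 1.80, 2.01, 2.06 and 2.59 CPM in untreated wild-type cells. Even the low replicate 4 stayed above every untreated library, and the rise was 6.97-fold in alpha-synuclein and 10.8-fold in wild-type cells. GPX1, the main cytosolic peroxidase, was not called in alpha-synuclein cells at 0.21 ± 0.20 and rose in wild-type cells by 0.62 ± 0.20, a call lost without untreated replicate 1 (adjusted p = 0.0527). GPX8 of the endoplasmic reticulum rose in alpha-synuclein cells by 0.85 ± 0.13, and its change of 0.35 ± 0.15 in wild-type cells missed the threshold (adjusted p = 0.0516).

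The 8 soluble glutathione transferases tested, which conjugate electrophiles to glutathione, went both ways. GSTO1, the omega-class enzyme, had 11.0, 13.6, 9.63 and 11.2 CPM in treated and 5.14, 6.82, 5.53 and 5.89 CPM in untreated alpha-synuclein cells, with no overlap (log2 0.94 ± 0.23). In wild-type cells GSTO1 had 14.9, 7.26, 17.2 and 6.96 CPM with 6-OHDA and 7.51, 6.57, 4.67 and 6.49 CPM without, where the libraries overlapped although the change was called (log2 0.91 ± 0.25, adjusted p = 0.00400). GSTM2 rose in both genotypes, by 0.62 ± 0.12 in alpha-synuclein and 0.73 ± 0.12 in wild-type cells, while GSTM3 was called in neither, at 0.07 ± 0.09 in alpha-synuclein and 0.05 ± 0.10 in wild-type cells. GSTM4 stood at 0.39 ± 0.18 in alpha-synuclein cells, not called, and rose in wild-type cells by 0.49 ± 0.20, a call that was lost without any of 4 single libraries (untreated replicate 1 or 4, 6-OHDA replicate 2 or 4). With no filter on low counts that call was lost too. The members of the mu class are close paralogs, so the division of reads among GSTM1, GSTM2 and GSTM4 is uncertain. GSTK1, the mitochondrial and peroxisomal kappa-class enzyme, fell by 0.45 ± 0.11 in alpha-synuclein cells and 0.45 ± 0.12 in wild-type cells on the log2 scale. Of the membrane-bound microsomal enzymes MGST1 rose by 0.75 ± 0.18 in alpha-synuclein and 0.71 ± 0.19 in wild-type cells, MGST2 was called in neither, and MGST3 was called lower in alpha-synuclein cells at -0.24 ± 0.08 and not called in wild-type cells at -0.12 ± 0.08. The MGST3 call was lost without untreated replicate 1 or 3 or 6-OHDA replicate 2. It was also lost without the 2 untreated libraries whose names carry 4 barcode numbers, and with only the groups compared in the fit.

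The superoxide dismutases split by compartment. Cytosolic SOD1 had 220.5, 206, 237 and 196 CPM in treated and 119, 126, 134 and 113 CPM in untreated alpha-synuclein cells. In wild-type cells SOD1 had 233, 236, 258 and 253 CPM with 6-OHDA and 107, 119, 130.2 and 112 CPM without, a rise of 1.74-fold in alpha-synuclein and 2.09-fold in wild-type cells. Mitochondrial SOD2, on the ID that held most of its counts (chromosome 6, 159669057 to 159745186 on GRCh38, minus strand), had 20.9, 26.6, 22.8 and 60.5 CPM in treated and 90.3, 118, 105 and 77.1 CPM in untreated alpha-synuclein cells. It had 29.6, 29.3, 32.6 and 38.8 CPM in treated and 89.5, 114.02, 107 and 93.7 CPM in untreated wild-type cells. All treated libraries lay below all untreated ones, and SOD2 fell by 1.496 ± 0.23 in alpha-synuclein and 1.66 ± 0.25 in wild-type cells on the log2 scale. Replicate 4 was the high one among the treated alpha-synuclein libraries, and without it SOD2 fell by 2.07 ± 0.16. The second SOD2 ID overlaps the first on the same strand, held a mean of 1.79 to 3.69 CPM in any group and was not called. Of the 7 tested rows whose products are mainly mitochondrial, counting both SOD2 IDs, 1 rose (GLRX5) and 1 fell (SOD2) in alpha-synuclein cells. Of all tested genes 22.9% were higher and 24.2% lower there. In wild-type cells 0 rose and 2 fell (SOD2 and GLRX2), beside 25.8% and 26.2% of all tested genes. The share that fell, 28.6%, was thus near the background. PRDX5 and GSTK1, shared with peroxisomes, were not counted. PRDX5 rose in wild-type cells and GSTK1 fell in both genotypes. Catalase (CAT) varied widely between replicates, with 4.14, 21.8, 12.2 and 5.09 CPM in untreated alpha-synuclein cells and 3.76, 3.47, 17.0 and 4.11 CPM in untreated wild-type cells, and was called in no comparison. Of the glutaredoxins, thiol oxidoreductases that use glutathione, cytosolic GLRX was not called in alpha-synuclein cells at 0.04 ± 0.11 and rose in wild-type cells by 0.28 ± 0.11 (adjusted p = 0.0412), a call lost in 11 of 13 alternatives, among them those without untreated replicate 2, 3 or 4 or any 1 of the treated libraries. GLRX3 was called in neither genotype with all libraries, and without replicate 4 it was called higher in alpha-synuclein cells at 0.26 ± 0.10 (adjusted p = 0.0444).

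Of the 4 members grouped under NADPH supply and the pentose phosphate pathway, PGD, TALDO1 and TKT rose in both genotypes and IDH1 did not. Among 11 tested rows of further NADPH genes, 2 rose and 4 fell in alpha-synuclein cells, and 3 rose and 4 fell in wild-type cells. The shares of all tested genes given above stand beside these counts. PGD, the 6-phosphogluconate dehydrogenase of the pentose phosphate pathway, had 34.4, 35.2, 36.7 and 27.2 CPM in treated and 17.1, 13.4, 16.3 and 14.5 CPM in untreated alpha-synuclein cells. It had 38.4, 34.8, 39.5 and 38.3 CPM in treated and 15.4, 19.0, 20.7 and 15.9 CPM in untreated wild-type cells, and rose 2.16-fold in alpha-synuclein and 2.14-fold in wild-type cells. TALDO1, transaldolase, rose by 0.73 ± 0.16 in alpha-synuclein and 0.75 ± 0.17 in wild-type cells, and TKT by 0.39 ± 0.08 in alpha-synuclein and 0.86 ± 0.08 in wild-type cells. Cytosolic isocitrate dehydrogenase IDH1 was not called in alpha-synuclein cells (0.15 ± 0.10) and fell in wild-type cells by 0.45 ± 0.10 on the log2 scale.

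**Figure D2:**
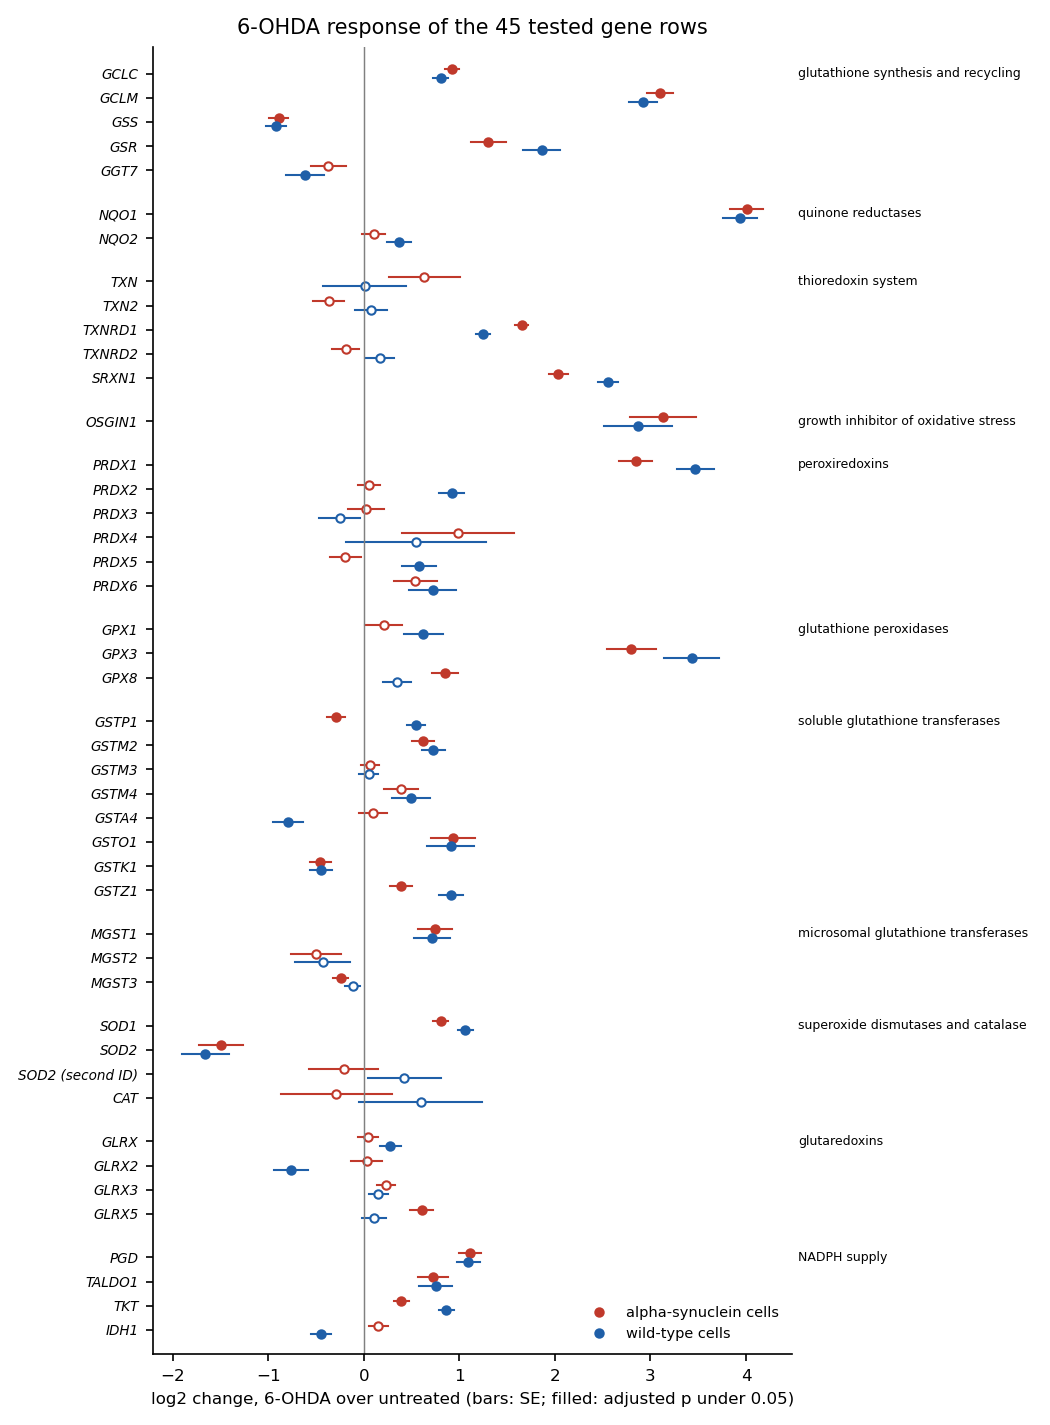
Log2 change with 6-OHDA over untreated cells for the 45 tested gene rows, grouped by role, in alpha-synuclein cells (red) above wild-type cells (blue); bars are the SE and filled points passed an adjusted p of 0.05. NQO1, at 4.01 and 3.94, stands farthest right and SOD2, at -1.496 and -1.66, farthest left.

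Promoter sequence was read from the RefSeq windows of GRCh38.p14, which run from 250 bases before to 50 bases after each annotated start. A window was held for 39 of the 47 members, and GLRX3, GSR, GSS, MGST2, PRDX1, PRDX6, SOD1 and TXN2 had none. The core of the antioxidant response element was searched on both strands as TGACNNNGC, which was found in 10 of the 51 member windows (19.6%), belonging to 9 genes, and in 13.3% of all 35116 windows. The 8 tested genes with a match had median log2 changes of 0.84 in alpha-synuclein and 0.81 in wild-type cells, and the 28 without had medians of 0.30 in alpha-synuclein and 0.52 in wild-type cells. Members without a window are in neither set, among them PRDX1, GSR and SOD1, which rose, and GSS, which fell. The stretches that follow show the letters around matches of several members, among them GCLM and GSTP1. Whether the presence or the form of a match bears on the response was not tested. Matches are in capitals, and all stretches are written 5′ to 3′ on the strand that reads the match.
GCLM: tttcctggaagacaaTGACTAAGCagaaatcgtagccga
GSTP1: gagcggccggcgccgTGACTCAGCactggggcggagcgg
PGD: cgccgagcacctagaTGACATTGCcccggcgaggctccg
TXNRD1: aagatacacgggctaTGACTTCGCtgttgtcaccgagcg
TXNRD1 at its second start: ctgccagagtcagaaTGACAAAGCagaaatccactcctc
GSTO1: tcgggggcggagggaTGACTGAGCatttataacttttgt
GSTO1, second match: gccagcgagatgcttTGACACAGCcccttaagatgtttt
IDH1: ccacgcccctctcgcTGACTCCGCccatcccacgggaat

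The GCLM match (stretch shown, chr1:93909441-93909479) begins 34 bases before the start and lies on the strand opposite to the gene, as does that of PGD (chr1:10398848-10398886), 201 bases before its start. The GSTP1 match (chr11:67583731-67583769), 66 bases before its start, was the only one among members that also fits TGACTCAGC, a form that holds the overlapping TGACTCA site of AP-1 and was found in 0.561% of all windows. TXNRD1 (chr12:104215665-104215703 and chr12:104286915-104286953), GSTO1 (chr10:104254651-104254689 and chr10:104254716-104254754) and IDH1 (chr2:208255191-208255229) matched only the looser core. IDH1 and GSTA4 held a match and were called lower in wild-type cells, and NQO1, with the steepest rise, held none in its window. A match is a description of these letters and does not show that a factor binds there. To give their context, the 250 bases before the start of GCLM (chr1:93909431-93909680, minus strand) and of GSTP1 (chr11:67583562-67583811, plus strand) read as follows on the strand of the gene, with the match in capitals (for GCLM as its reverse complement).
GCLM promoter: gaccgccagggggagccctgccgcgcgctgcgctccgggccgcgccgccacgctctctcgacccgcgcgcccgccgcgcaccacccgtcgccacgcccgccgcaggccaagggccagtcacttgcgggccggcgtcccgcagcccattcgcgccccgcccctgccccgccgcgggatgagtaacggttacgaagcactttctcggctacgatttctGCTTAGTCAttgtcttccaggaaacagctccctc
GSTP1 promoter: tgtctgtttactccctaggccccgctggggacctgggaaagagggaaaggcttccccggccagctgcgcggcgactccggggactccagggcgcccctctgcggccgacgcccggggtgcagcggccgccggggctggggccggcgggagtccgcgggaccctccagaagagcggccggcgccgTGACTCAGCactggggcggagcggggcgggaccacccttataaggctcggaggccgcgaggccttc

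The genotypes were next compared directly. In untreated cells no member was called between alpha-synuclein and wild-type cells: 0 of 45 rows passed (edgeR; 0 also with DESeq2), beside 0.373% of all tested genes called higher and 0.277% called lower, and 4 rows had an unadjusted p under 0.05. These 4 were PRDX2 (log2 0.41 ± 0.12), GSTP1 (0.29 ± 0.09), GSTZ1 (0.31 ± 0.12) and GSR (0.43 ± 0.19), each higher in alpha-synuclein cells, with adjusted p of 0.161, 0.225, 0.372 and 0.488. Under 6-OHDA, 5 rows were higher in alpha-synuclein cells than in wild-type cells (TXNRD1, GPX8, GSTA4, GLRX2 and IDH1) and 6 were lower (NQO2, SRXN1, PRDX2, PRDX5, GSTP1 and TKT), beside 14.4% of all tested genes higher and 12.9% lower. Without replicate 4 these counts were 4 and 8, GLRX2 was no longer called (adjusted p = 0.05001) and SOD2, at 0.11 ± 0.25 with all libraries, was called lower at -0.46 ± 0.17. MGST3 was also called lower without it, at -0.29 ± 0.08 (adjusted p = 0.0143), against -0.22 with all libraries. The most strongly induced members, NQO1, GCLM, OSGIN1, PRDX1 and GPX3, were not called between treated genotypes.

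The size of the 6-OHDA response itself was called different between genotypes for 11 of the 45 rows, 5 with a more positive change in alpha-synuclein cells and 6 with a more negative one. Over all tested genes 11.2% were called in the first direction and 10.5% in the second, so the members' shares, 11.1% and 13.3%, were near the background. Without replicate 4 of treated alpha-synuclein cells the counts were 4 and 6: GLRX2 and GSTZ1 were no longer called, and TXN2 was called at -0.63 ± 0.22 (adjusted p = 0.0432). Without untreated wild-type replicate 4 the total was 7. As stated above, lane follows this contrast.

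GSTP1 had 724, 623, 789 and 897 CPM in treated and 981, 876, 963 and 905 CPM in untreated alpha-synuclein cells, which overlapped. In wild-type cells GSTP1 had 1106, 1069.5, 1197 and 1079.7 CPM with 6-OHDA and 691, 871, 755 and 736 CPM without, with no overlap. The change was -0.29 ± 0.09 in alpha-synuclein cells and 0.54 ± 0.09 in wild-type cells, and the difference of -0.84 ± 0.13 was called (adjusted p = 0.000531) and remained so under all 22 alternatives. The fall within alpha-synuclein cells was less stable and was lost without 6-OHDA replicate 2 or without the 2 untreated libraries whose names carry 4 barcode numbers. It was also lost with only the groups compared in the fit (largest adjusted p = 0.0743 over the alternatives).

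PRDX2, a cytosolic peroxiredoxin abundant in neurons, had 24.9, 17.9, 23.0 and 22.4 CPM in treated and 17.1, 22.5, 23.5 and 22.2 CPM in untreated alpha-synuclein cells. It had 26.4, 31.5, 33.5 and 32.8 CPM in treated and 18.6, 14.8, 15.5 and 15.8 CPM in untreated wild-type cells. The libraries overlapped in alpha-synuclein cells and not in wild-type cells, and the changes differed by -0.86 ± 0.17 (adjusted p = 0.00183). PRDX5, found in mitochondria and peroxisomes, had 7.64, 12.9, 12.0 and 12.4 CPM in treated and 12.1, 12.8, 14.5 and 11.5 CPM in untreated alpha-synuclein cells. In wild-type cells PRDX5 had 14.8, 16.0, 23.3 and 18.9 CPM with 6-OHDA and 14.2, 11.3, 11.4 and 10.7 CPM without. Its difference of -0.77 ± 0.24 (adjusted p = 0.0252) was lost in 7 of 22 alternatives, among them those without 6-OHDA wild-type replicate 3 or 4, untreated wild-type replicate 4, untreated alpha-synuclein replicate 3 and 6-OHDA alpha-synuclein replicate 1.

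GSTA4, which clears the lipid peroxidation product 4-hydroxynonenal, had 18.8, 28.4, 20.4 and 24.9 CPM in treated and 19.0, 24.7, 20.6 and 21.5 CPM in untreated alpha-synuclein cells. It had 17.6, 13.9, 9.30 and 12.4 CPM in treated and 23.7, 22.6, 24.8 and 26.4 CPM in untreated wild-type cells, where it fell in every treated library. The changes differed by 0.89 ± 0.22 (adjusted p = 0.00554). Mitochondrial glutaredoxin GLRX2 went the same way, with 35.1, 33.7, 38.5 and 47.6 CPM in treated and 28.1, 52.7, 36.6 and 35.6 CPM in untreated alpha-synuclein cells. In wild-type cells GLRX2 had 28.0, 23.9, 25.1 and 20.4 CPM with 6-OHDA and 39.4, 32.8, 43.7 and 52.2 CPM without. Its difference of 0.79 ± 0.24 (adjusted p = 0.0229) was lost without 6-OHDA alpha-synuclein replicate 4, without untreated wild-type replicate 4 and without the 2 libraries with 4 barcode numbers (largest adjusted p = 0.109 over the alternatives).

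IDH1 had 283, 307, 310.4 and 430.2 CPM in treated and 270.0, 348, 296 and 287 CPM in untreated alpha-synuclein cells. It had 241, 228, 251 and 249.7 CPM in treated and 292, 347, 344 and 339.7 CPM in untreated wild-type cells. The difference was 0.60 ± 0.15 (adjusted p = 0.00580) and 0.45 ± 0.11 without replicate 4, the library at 430.2 CPM. TKT had 592, 631, 674 and 593 CPM in treated and 496, 428, 526 and 447 CPM in untreated alpha-synuclein cells, against 859.5, 827, 870.1 and 802 CPM in treated and 415, 535, 449 and 449 CPM in untreated wild-type cells. It rose in both genotypes without overlap, by less in alpha-synuclein cells (difference -0.47 ± 0.11, adjusted p = 0.00453). TXNRD1 was the leading member that rose more in alpha-synuclein cells (difference 0.41 ± 0.10, adjusted p = 0.00629), while SRXN1 rose less there (-0.52 ± 0.14, adjusted p = 0.0121).

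The remaining 2 calls were less stable. GSTZ1, the zeta-class transferase of tyrosine breakdown, had 31.1, 28.7, 25.8 and 21.9 CPM in treated and 24.3, 19.2, 18.2 and 20.1 CPM in untreated alpha-synuclein cells. It had 30.0, 28.4, 28.4 and 37.3 CPM in treated and 18.0, 15.7, 15.7 and 16.1 CPM in untreated wild-type cells, and its difference of -0.52 ± 0.17 (adjusted p = 0.0338) was lost in 11 of 22 alternatives, among them those without untreated wild-type replicate 3 or 4, untreated alpha-synuclein replicate 1, 6-OHDA alpha-synuclein replicate 3 or 4, or any 1 of the treated wild-type libraries (largest adjusted p = 0.121 over the alternatives). The GSTZ1 rise within alpha-synuclein cells (0.39 ± 0.12) was itself lost without 6-OHDA replicate 1 or without the 2 untreated libraries with 4 barcode numbers (largest adjusted p = 0.126 over the alternatives). Mitochondrial GLRX5, which serves iron-sulfur cluster assembly, had 75.4, 75.0, 91.4 and 76.3 CPM in treated and 49.01, 60.3, 50.2 and 49.4 CPM in untreated alpha-synuclein cells. In wild-type cells GLRX5 had 64.4, 62.0, 59.5 and 69.1 CPM with 6-OHDA and 61.9, 52.7, 63.5 and 58.6 CPM without, and its difference of 0.50 ± 0.17 (adjusted p = 0.0394) was lost in 9 of 22 alternatives, among them those without untreated wild-type replicate 1, 3 or 4, untreated alpha-synuclein replicate 1, 3 or 4 and 6-OHDA alpha-synuclein replicate 3.

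**Figure D3:**
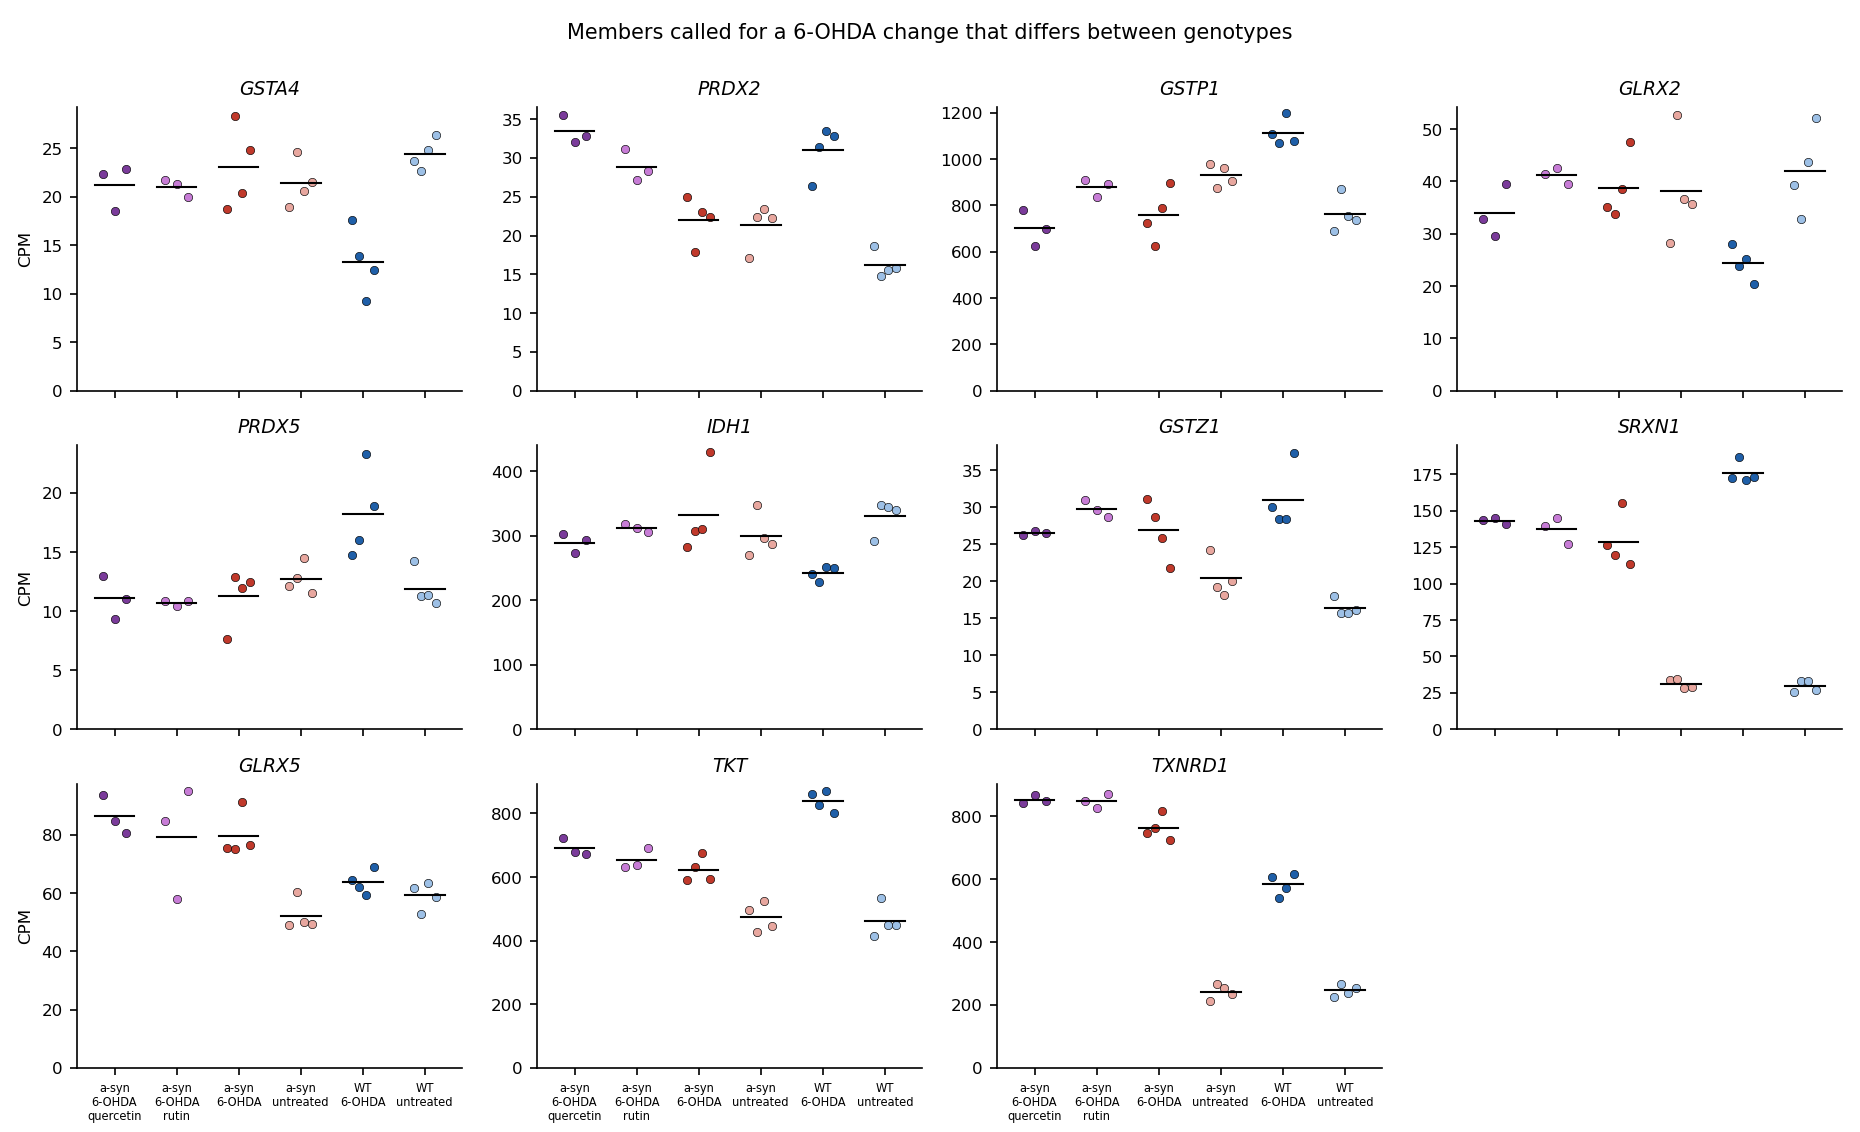
CPM by library (dots) and group mean (bars) for the 11 members whose 6-OHDA change was called different between genotypes, with compound groups left of 6-OHDA alone and treated left of untreated cells. GSTP1 lies at 623 to 897 CPM in treated alpha-synuclein cells and at 1069.5 to 1197 CPM in treated wild-type cells, while TXNRD1 is higher in treated alpha-synuclein cells.

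Quercetin, a flavonol, and rutin, the same flavonol carrying a rutinose sugar, were added to 6-OHDA-treated alpha-synuclein cells. Because the labels state no dose or time, whether the compounds were matched in these is unknown. With quercetin 1 of the 45 rows was higher and 1 lower than with 6-OHDA alone, beside 0.560% of all tested genes higher and 1.97% lower, and 7 rows had an unadjusted p under 0.05. With rutin 0 rows were called by edgeR and 1 by DESeq2 (SOD1), beside 0% of all tested genes higher and 0% lower by edgeR, and 6 rows had an unadjusted p under 0.05. Both comparisons share the same 4 libraries with 6-OHDA alone.

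PRDX2 had 35.6, 32.03 and 32.8 CPM with quercetin, 31.2, 27.1 and 28.3 CPM with rutin, and 24.9, 17.9, 23.0 and 22.4 CPM with 6-OHDA alone. All compound libraries were above all libraries with 6-OHDA alone, and the log2 change was 0.58 ± 0.13 with quercetin (adjusted p = 0.0212) and 0.38 ± 0.13 with rutin (adjusted p = 0.288). GSS had 24.7, 22.3 and 23.7 CPM with quercetin, 31.3, 28.2 and 30.1 CPM with rutin, and 29.1, 32.7, 27.5 and 36.2 CPM with 6-OHDA alone. It was lower in every quercetin library, at -0.42 ± 0.11 (adjusted p = 0.0374), and stood at -0.08 ± 0.11 with rutin (adjusted p = 0.850). Neither quercetin call held without 6-OHDA replicate 4, without any 1 of the 3 quercetin libraries or with only the groups compared in the fit. That of GSS was also lost without 6-OHDA replicate 2, with no filter on low counts and with the replicate block (largest adjusted p over the alternatives = 0.157 for PRDX2 and 0.263 for GSS). Without 6-OHDA replicate 1 the number of members called with quercetin was 4, with PRDX1 (0.61 ± 0.16) and GSTM3 (0.38 ± 0.10) added as higher, and without replicate 3 it was 3, with SOD1 added (0.32 ± 0.09).

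SOD1 had 289.7, 239.8 and 251 CPM with quercetin, 280.5, 266 and 279.6 CPM with rutin, and 220.5, 206, 237 and 196 CPM with 6-OHDA alone. All compound libraries were higher, but the change was not called with quercetin (0.28 ± 0.08, adjusted p = 0.0873) or with rutin (0.36 ± 0.09, adjusted p = 0.162). For the leading induced members no change from 6-OHDA alone was called: NQO1 changed by 0.05 ± 0.16 with quercetin and 0.12 ± 0.16 with rutin, GCLM by 0.16 ± 0.13 with quercetin and 0.18 ± 0.13 with rutin, and SRXN1 by 0.16 ± 0.10 with quercetin and 0.10 ± 0.10 with rutin, none of them called.

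Quercetin was then set against rutin directly, with 0 of the 45 rows called by edgeR and 0 by DESeq2, beside 0% of all tested genes higher and 0.00602% lower, and 3 rows had an unadjusted p under 0.05. Those were GSTP1 (log2 -0.33, 95% interval -0.55 to -0.10), GSS (-0.34, -0.58 to -0.10) and NQO2 (-0.32, -0.60 to -0.03), each lower with quercetin and without overlap (adjusted p = 0.340, 0.352 and 0.505). For NQO1 the difference was -0.07 with an interval of -0.42 to 0.28, for GCLM -0.02 (-0.31 to 0.26) and for TXNRD1 0.01 (-0.16 to 0.18). Intervals were wider for low genes, and that of OSGIN1 ran from -0.95 to 0.38. The number of pairs compared was 1, and p-values were adjusted over all tested genes.

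**Figure D4:**
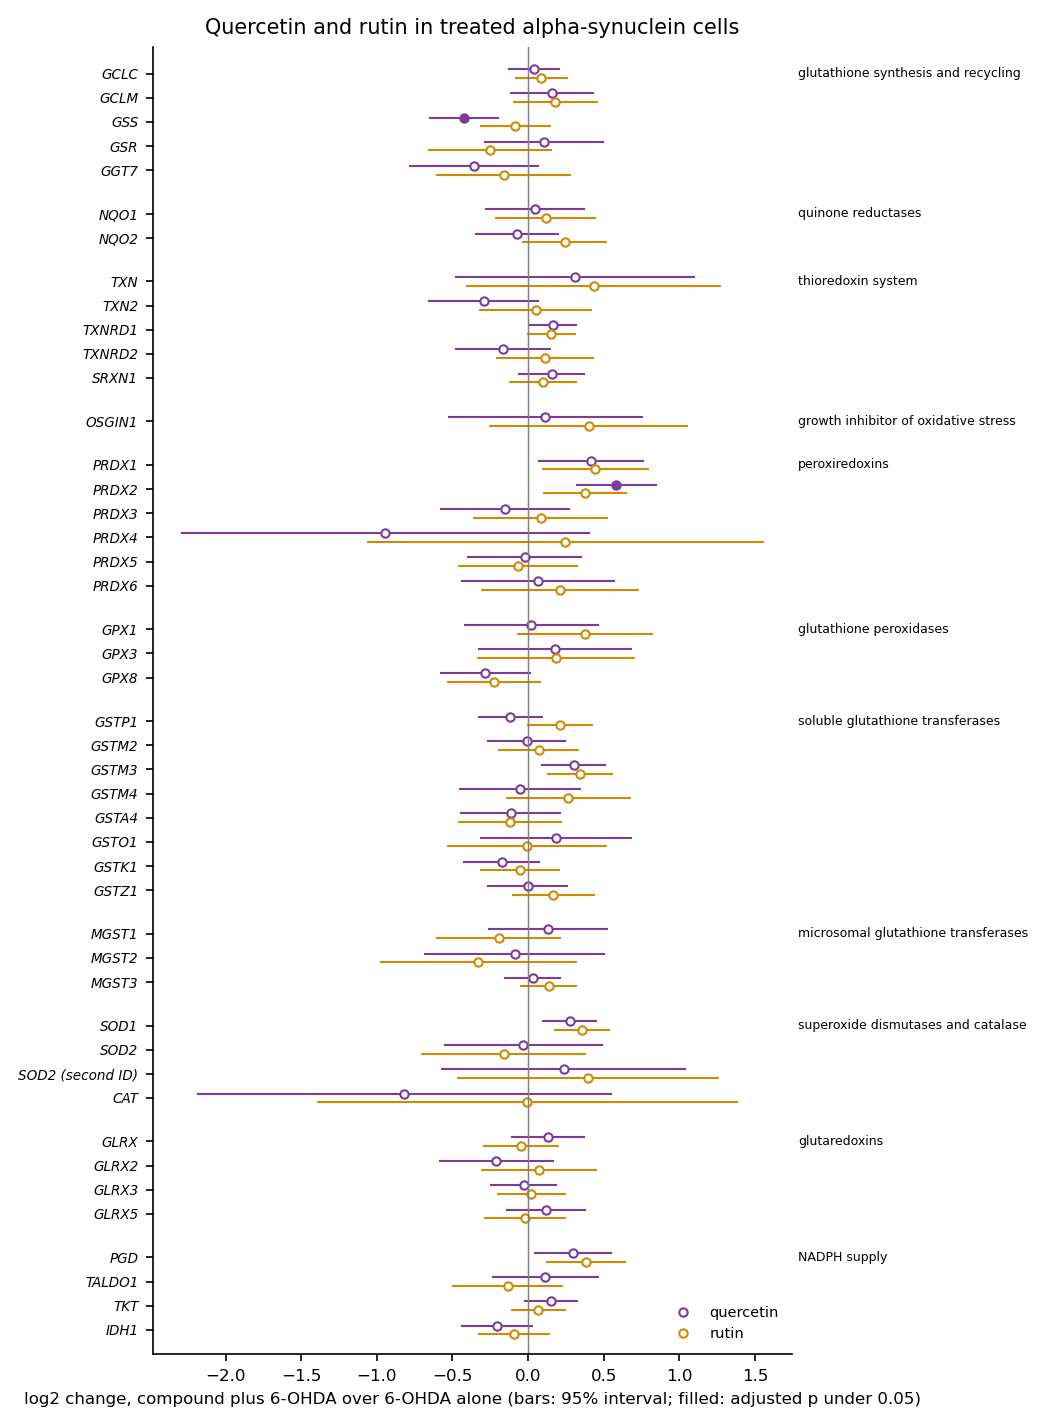
Log2 change of the 45 tested gene rows when treated alpha-synuclein cells received quercetin (purple, above) or rutin (orange) over 6-OHDA alone; bars are 95% intervals and filled points passed an adjusted p of 0.05. Filled points are PRDX2 at 0.58 and GSS at -0.42, both with quercetin.

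Of 68 further genes of the same pathways (the NRF2 circuit, cystine uptake and other glutathione, thioredoxin and NADPH genes), 62 were in the table and 60 rows were tested. With 6-OHDA 21 rose and 13 fell in alpha-synuclein cells, and 30 rose and 12 fell in wild-type cells, against the backgrounds given above. This list too was chosen with earlier results of these data known. In untreated cells 0 differed between genotypes, beside 0.373% of all tested genes higher and 0.277% lower. Under 6-OHDA 10 were higher and 15 lower in alpha-synuclein cells. These were 16.7% and 25% of the rows, beside 14.4% and 12.9% of all tested genes. The count of lower rows was 8 without treated wild-type replicate 1 or 2 and 9 without treated alpha-synuclein replicate 1. The 6-OHDA response was called different between genotypes for 18 rows, 8 more positive and 10 more negative in alpha-synuclein cells. Over all tested genes these shares were 11.2% and 10.5%. With a library left out the total ran from 14 to 22, and lane follows this contrast. HMOX1, the heme oxygenase that serves as a classic NRF2 target, had 62.1, 50.97, 53.8 and 14.3 CPM in treated and 1.14, 0.207, 0.615 and 0.457 CPM in untreated alpha-synuclein cells. In wild-type cells HMOX1 had 90.6, 88.6, 89.3 and 70.6 CPM with 6-OHDA and 1.31, 0.730, 0.187 and 0.541 CPM without. Its untreated level rests on a few counts per library, and the log2 changes of 6.33 ± 0.47 in alpha-synuclein and 6.92 ± 0.50 in wild-type cells had 95% intervals of 5.36 to 7.30 in alpha-synuclein and 5.89 to 7.96 in wild-type cells.

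SLC7A11, the cystine importer that feeds glutathione synthesis, had 234, 271, 228 and 417 CPM in treated and 7.14, 16.1, 7.77 and 12.8 CPM in untreated alpha-synuclein cells. In wild-type cells SLC7A11 had 153, 164, 142 and 168 CPM with 6-OHDA and 9.80, 5.84, 11.6 and 9.95 CPM without. It rose without overlap by 4.69 ± 0.22 in alpha-synuclein and 4.07 ± 0.24 in wild-type cells, and its partner SLC3A2 rose by 2.16 ± 0.11 in alpha-synuclein and 2.66 ± 0.11 in wild-type cells. Quercetin libraries held 146, 155 and 153 CPM of SLC7A11 and rutin libraries 199, 215 and 211 CPM, all below the 228 to 417 CPM with 6-OHDA alone. The fall with quercetin was called (log2 -0.94 ± 0.20, adjusted p = 0.0218), was not called without 6-OHDA replicate 4 (-0.69 ± 0.17, adjusted p = 0.0706), and was not called without any 1 quercetin library either. With all libraries it was the only one of the 60 called with quercetin, and 0 were called with rutin or between the compounds. The quercetin count was 6 without 6-OHDA replicate 1, 3 without replicate 2 or 3, and 0 without replicate 4 or any 1 quercetin library.

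Of the regulators, NFE2L2 rose by 0.82 ± 0.10 in alpha-synuclein and 0.61 ± 0.11 in wild-type cells, and BACH1, a repressor at the same elements, by 1.02 ± 0.11 in alpha-synuclein and 0.90 ± 0.12 in wild-type cells. KEAP1 was not called in alpha-synuclein cells at 0.18 ± 0.10 and rose in wild-type cells by 0.70 ± 0.11, and the difference was called (-0.52 ± 0.15, adjusted p = 0.0161, lost without 6-OHDA wild-type replicate 1 at 0.0508). SQSTM1, an adaptor that sequesters KEAP1, rose by 2.11 ± 0.10 in alpha-synuclein and 2.88 ± 0.11 in wild-type cells, and MAFG, a small Maf partner of NRF2, by 1.92 ± 0.18 in alpha-synuclein and 3.51 ± 0.21 in wild-type cells. Differences between genotypes were also called for SQSTM1 (-0.77) and MAFG (-1.59), and both calls held with any 1 library left out. For NFE2L2 and BACH1 the difference was not called with all libraries. PIR, BLVRB and CHAC1, the last of which degrades glutathione, rose by 2.94 ± 0.30, 2.33 ± 0.28 and 2.52 ± 0.36 in alpha-synuclein cells and by 2.91 ± 0.31, 2.67 ± 0.31 and 3.53 ± 0.42 in wild-type cells. TXNIP, which binds and inhibits thioredoxin, fell by 1.60 ± 0.20 in alpha-synuclein cells and 2.61 ± 0.22 in wild-type cells, with no overlap in either.

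GPX4, the peroxidase of membrane lipid hydroperoxides, had 204, 191, 208 and 230.3 CPM in treated and 290.2, 253, 299 and 265 CPM in untreated alpha-synuclein cells. It had 316, 283, 339 and 318 CPM in treated and 216, 298, 227 and 234 CPM in untreated wild-type cells. It was lower with 6-OHDA in alpha-synuclein cells (-0.40 ± 0.10) and higher in wild-type cells (0.37 ± 0.10), and the difference was called (-0.77 ± 0.14, adjusted p = 0.00109).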

How the data were processed

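RNA-seq of polyadenylated RNA was analysed in 22 libraries of 6 groups. Per the submitters' processing notes, reads were trimmed with Trimmomatic 0.38 and quantified with kallisto 0.46.2 on GRCh38 (hg38). The values are estimated counts per gene, deposited by the authors as whole numbers with no normalization, so depth differs between libraries (totals of 1866396 to 20667106). From these counts, edgeR 4.0.16 (R 4.3.3, limma 3.58.1) kept 16601 of 34679 genes with filterByExpr at a minimum count of 10 (the genes left out held 0.1745% of all counts), scaled libraries by TMM and fitted all 6 group means in a single quasi-likelihood model. P-values were adjusted by Benjamini-Hochberg over all tested genes, a call is an adjusted p under 0.05, and the SE is the log2 change divided by the square root of F. The 8 contrasts were 6-OHDA in each genotype, genotype with and without 6-OHDA, the difference between genotypes in response, each compound over 6-OHDA alone, and quercetin over rutin. CPM values use TMM-scaled library sizes. Intervals are 95% and cover the spread between libraries, and floors of 3 counts cover counting error only.

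Members and gene lists were chosen with earlier results of these data known. Per-library values are given for the 12 members with the largest mean 6-OHDA change, those called with a compound, those whose response differed between genotypes, and those called in opposite directions; other members are given within their role. Called genotype differences under 0.5 in size (TXNRD1, TKT, GLRX5) and CAT were given per library after their values were seen. Alternatives were RLE factors, DESeq2 1.42.0, no low-count filter, the compared groups only, a replicate block, leaving out each library, and leaving out the 2 libraries with 4 barcode numbers. Same-numbered replicates did not deviate together (correlations -0.138 to 0.0633) and were not treated as pairs. The fit was also run on simulated counts in which a small set of genes changed in a single group, equally up and down. The 6-OHDA response here was far broader, so that run does not test the fit for such a response. Some genes are not reported here.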

Additional observations from a re-analysis of the deposited data

Results flagged for a closer look

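For 11 members the 6-OHDA change differed between alpha-synuclein and wild-type cells by the test of that difference. The log2 differences, alpha-synuclein minus wild type, were 0.41 for TXNRD1, 0.89 for GSTA4, 0.79 for GLRX2, 0.50 for GLRX5 and 0.60 for IDH1. They were -0.52 for SRXN1, -0.86 for PRDX2, -0.77 for PRDX5, -0.84 for GSTP1, -0.52 for GSTZ1 and -0.47 for TKT.

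Single libraries stood far from the other 3 of their group in 12 of 180 member-by-group tests, and chance flags about 1 in 20 groups. In alpha-synuclein cells with 6-OHDA these were NQO2 in replicate 2 (15.4 CPM), PRDX4 in replicate 1 (2.99 CPM), GLRX5 in replicate 3 (91.4 CPM), and in replicate 4 GSTM2 (35.7 CPM) and SOD2 (60.5 CPM). In untreated alpha-synuclein cells they were GLRX in replicate 4 (27.6 CPM) and GLRX5 in replicate 2 (60.3 CPM). In wild-type cells with 6-OHDA they were SRXN1 in replicate 2 (187 CPM) and GSTM3 in replicate 3 (69.8 CPM). In untreated wild-type cells they were TXNRD2 (30.5 CPM) and IDH1 (292 CPM) in replicate 1 and CAT in replicate 3 (17.0 CPM).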

How the results depend on the processing

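Over all members, comparisons and alternatives, 4866 values kept their side of the threshold, 81 lost the call and 39 gained it. Values called in neither fit count as kept even where their sign changed. Only 1 value with a call in either fit changed sign: SOD2 in alpha-synuclein against wild-type cells under 6-OHDA. It stood at -0.46 without 6-OHDA alpha-synuclein replicate 4 and at up to 0.32 with another library left out. Members called with quercetin numbered 2, and 4 with DESeq2, 1 with no filter, 1 with the replicate block, 0 with only the groups compared and 0 to 4 with a library left out. With rutin DESeq2 called 1 member. With a library left out, members called numbered 23 to 27 for 6-OHDA in alpha-synuclein cells, 28 to 31 in wild-type cells, 11 to 14 between treated genotypes and 7 to 12 for the difference in response. The replicate block gave 25, 32, 12 and 10 of these, so the pairing by number moved no other member count by over 1.5 times. The percentages that follow divide the genes called in each fit by the 16601 genes tested in the reported fit. Some alternatives tested other genes, so these are not shares of the genes that each alternative tested. Genotype in untreated cells called 0.651%, and 1.39% with DESeq2, 0.139% with only the groups compared, 0.0663% without the libraries with 4 barcode numbers and 0.199 to 1.44% with a library left out. The difference in response called 21.6%, 11.9% without those libraries and 17.2 to 25.9% with a library left out. Quercetin called 2.53%, and 5.84% with DESeq2, 0.723% with the replicate block, 0.012% with only the groups compared and 0.157 to 5.4% with a library left out. Rutin called 0%, and 0.012% with RLE factors, 1.72% with DESeq2, 0.0241% with no filter and 0 to 0.861% with a library left out. Quercetin against rutin called 0.00602%, and 0.699% with DESeq2, 0.0482% with no filter, 0.114% with only the groups compared and 0 to 0.00602% with a library left out. The cause of these shifts was not tested. Leaving out libraries for the further pathway genes was chosen after seeing the data. Depth limits low members such as TXN, PRDX4 and OSGIN1, which lie near the floor of 0.168 to 1.49 CPM in several libraries.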
